A study of Mus musculus with 6 samples.

Results

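Transcripts of 10 genes of the tumour necrosis factor (TNF) receptor superfamily were followed in the RNA of splenic invariant natural killer T (iNKT) cells. The genes were Tnfrsf1a, Tnfrsf1b, Tnfrsf4, Tnfrsf9, Tnfrsf18, Tnfrsf25, Tnfrsf26, Cd27, Fas and Ltbr, chosen by name from the 48709 genes of the deposited table. The labels describe sorted, resting spleen cells of 3 Gpx4 cKO samples, in which Gpx4 is conditionally deleted, and of 3 WT samples. The sources used here name neither the Cre line that deletes Gpx4 nor the age of the mice, and do not say whether animals were pooled. The table names its 6 libraries by the numbers 18 to 23, and 0 of the 6 names occur in a label. Genotypes were therefore assigned to no library, no Gpx4 cKO against WT comparison was made, and every value below belongs to a numbered library.

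Receptors of this superfamily bind trimeric ligands of the TNF family through cysteine-rich repeats outside the cell. Those with a death domain in the cytoplasmic tail, such as TNFR1, DR3 and Fas, can recruit adaptors that activate caspases or NF-kappaB. Those without one, such as GITR, OX40, 4-1BB, CD27 and TNFR2, bind TRAF adaptors and act on T cells mainly as costimulatory receptors. On iNKT cells such receptors modulate cytokine release and survival after contact with antigen-presenting cells.

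Exon reads numbered from 903524 in library 21 to 10122187 in library 19, an 11.2-fold span. Levels are given as CPM, the exon reads a gene would have in a library of 1000000 such reads after a correction for RNA composition, and, where genes are set side by side, as CPM per kilobase (kb) of exon. Intervals are exact 95% Poisson intervals and cover counting error only. For a gene without a read the limit was set at 3 reads, which equals 0.282 CPM in library 19 and 3.62 CPM in library 21. The T cell receptor gene Cd3e ranged from 764 to 924 CPM and the iNKT regulator gene Zbtb16 from 245 to 357 CPM, and all 6 listed iNKT markers were read in every library. The 8 listed early-response genes summed to 996 CPM in library 19 and to at most 4120 CPM (library 22), and the 6 erythroid markers to 4.34 CPM in library 18 and to at most 289 CPM (library 23). NK cell, dendritic cell and CD8 T cell markers summed to at most 66.4, 18.1 and 2.95 CPM.

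Of the 10 receptor genes, 8 lie in groups on 2 chromosomes of GRCm38. On chromosome 4, Tnfrsf1b, Tnfrsf9, Tnfrsf25, Tnfrsf4 and Tnfrsf18 span 10.8 Mb, and the end of Tnfrsf4 (156013843 to 156016612) is 9551 bases before the start of Tnfrsf18 (156026164 to 156028895). On chromosome 6, Cd27 (125232622 to 125237010), Ltbr and Tnfrsf1a lie within 130 kb. Tnfrsf26 is on chromosome 7 (143607659 to 143628722) and Fas on chromosome 19 (34290659 to 34327770).

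The sequences upstream of a RefSeq start site of 4 of these genes are shown. They contrast neighbours with different levels, and 2 of them hold motifs of factors activated by receptor signals. Each is the 250 bases before a RefSeq start site on the strand of the gene, plus for all 4, in GRCm38.p6. Capitals mark matches, on either strand, to the consensus of NF-kappaB or to the AP-1 site TGANTCA. For Tnfrsf18, the most abundant of the 10 per kb, the sequence at chr4:156026072-156026321 held neither motif. It extends past the gene start given above, 156026164.
Tnfrsf18: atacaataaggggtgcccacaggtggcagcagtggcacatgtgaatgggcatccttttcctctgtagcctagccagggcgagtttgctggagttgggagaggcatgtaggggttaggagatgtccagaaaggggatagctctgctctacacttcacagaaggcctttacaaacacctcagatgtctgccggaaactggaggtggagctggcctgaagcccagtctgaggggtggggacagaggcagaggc
For its neighbour Tnfrsf4, one of the least abundant, the sequence at chr4:156013445-156013694 held neither motif. This sequence ends before the gene start given above, 156013843, and the bases between were not searched. Bases shortly after this RefSeq start were found in no GENCODE M21 transcript of Tnfrsf4.
Tnfrsf4: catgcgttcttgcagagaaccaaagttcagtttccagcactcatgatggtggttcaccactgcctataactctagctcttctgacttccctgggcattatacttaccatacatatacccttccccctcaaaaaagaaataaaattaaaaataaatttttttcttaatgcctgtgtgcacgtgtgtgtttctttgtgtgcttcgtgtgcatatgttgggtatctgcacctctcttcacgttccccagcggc
Tnfrsf9 has 2 start sites in the RefSeq table, and the sequence before the upstream one held neither motif. The sequence before the downstream one, chr4:150927749-150927998, held both motifs and lies within the span of the gene (150914562 to 150946102).
Tnfrsf9: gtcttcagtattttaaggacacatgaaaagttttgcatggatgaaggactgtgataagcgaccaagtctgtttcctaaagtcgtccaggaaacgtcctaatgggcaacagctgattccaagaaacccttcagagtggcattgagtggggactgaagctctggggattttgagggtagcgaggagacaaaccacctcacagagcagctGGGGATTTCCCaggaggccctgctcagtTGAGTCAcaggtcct
For Fas the sequence at chr19:34290409-34290658 held an AP-1 match 211 bases before the start.
Fas: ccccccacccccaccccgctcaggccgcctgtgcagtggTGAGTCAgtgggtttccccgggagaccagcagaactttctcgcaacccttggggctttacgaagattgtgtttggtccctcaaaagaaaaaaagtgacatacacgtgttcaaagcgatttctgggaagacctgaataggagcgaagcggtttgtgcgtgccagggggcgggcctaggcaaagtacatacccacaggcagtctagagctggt

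The capitals in the Tnfrsf9 sequence cover 2 overlapping NF-kappaB matches, which begin 43 and 42 bases before the start, and an AP-1 match that begins 15 bases before it. RefSeq sequences were found for 9 of the 10 genes, 11 in all. A match to the NF-kappaB consensus was also found 28 bases before the downstream start of Tnfrsf25. Among 32851 sequences of the same length, 7.25% held the NF-kappaB consensus and 6.75% the AP-1 site. A match describes letters and not binding, which was not measured here.

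Tnfrsf18, which encodes the costimulatory receptor GITR, was the most abundant receptor transcript, and Ltbr was nearly absent. Per kb of exon, Tnfrsf18 had a median of 97.5 CPM per kb and was above the other 9 genes in all 6 libraries. Next came Tnfrsf1b (median 20.6 CPM per kb), Cd27 (18.7), Tnfrsf1a (15.2), Tnfrsf25 (11.8), Fas (9.22), Tnfrsf9 (8.46), Tnfrsf26 (4.81), Tnfrsf4 (3.91) and Ltbr (0.0386). The ranges over libraries did not overlap between Tnfrsf18 and Tnfrsf1b or between Tnfrsf4 and Ltbr. The other 7 of the 9 neighbouring pairs in this order overlapped, although Tnfrsf9 lay above Tnfrsf26 within each of the 6 libraries. Tnfrsf18 made up 43.3% (library 20) to 53.1% (library 23) of the summed level of the 10 genes per kb.

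**Figure D1:**
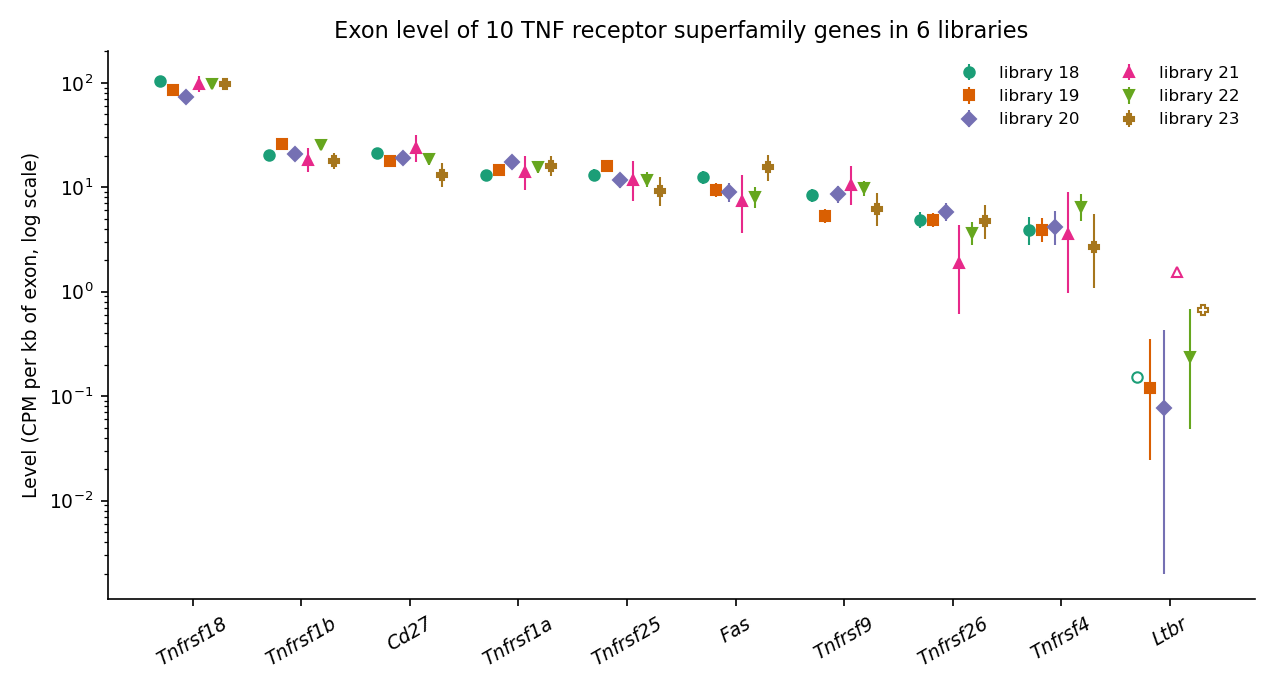
Exon level of each of the 10 receptor genes (CPM per kb of exon, log axis) in libraries 18 to 23, ordered by median. Points are libraries, bars are exact 95% Poisson intervals, and open points mark libraries without a read, drawn at the limit of 3 reads. Tnfrsf18 lies above all other genes in every library, and the Ltbr levels measured in 3 libraries lie below all others.

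The summed level of the 10 genes was almost even between libraries. It lay between 371 CPM (library 20) and 419 CPM (library 22), a 1.13-fold span, while single receptors moved by more. In these bulk samples, fewer cells carrying a transcript and less transcript per cell cannot be told apart.

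Tnfrsf18 counted 158, 129, 112, 150, 150 and 148 CPM in libraries 18 to 23. It was lowest in library 20 (interval 103 to 121 CPM) and highest in library 18 (150 to 167 CPM), a ratio of 1.41 (1.28 to 1.56). The intervals of libraries 21, 22 and 23 overlapped, and without library 20 the ratio fell to 1.23. Its counts were set against library size by chi-square, which gave p = 7.05e-12 after adjustment over all 9042 genes with at least 200 exon reads. By the authors' RPKM, whose implied library totals exceed the exon reads, library 20 was lowest too, at 30.4 against 42.6 to 49.3 RPKM elsewhere. RPKM rests on the same exon reads, so this is no separate evidence. Relative to exon reads the implied total was largest in library 20 (13287614 beside 5432206), which lowers every RPKM there.

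Tnfrsf4, which encodes the costimulatory receptor OX40, was read at 5.30, 5.37, 5.64, 4.83, 8.86 and 3.69 CPM in libraries 18 to 23. These rest on 44, 57, 31, 4, 48 and 7 reads, 191 in all, which is under the 200 set for the test. Library 22 was highest and library 23 lowest, with a ratio of 2.40 (1.08 to 6.29), or 1.53 without library 22. With the minimum lowered to 50 reads its adjusted p was 0.0727, so no difference beyond counting error was detected at this depth. Although the genes are neighbours, Tnfrsf18 exceeded Tnfrsf4 per kb by 15.2 times in library 22 and by 35.8 times in library 23.

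Tnfrsf9 encodes 4-1BB, a costimulatory receptor induced by T cell activation. Its level was 22.8, 14.5, 23.3, 29.0, 26.8 and 16.9 CPM in libraries 18 to 23. Library 19 was lowest (12.3 to 17.0 CPM, 154 reads), and library 23 was close to it (11.5 to 23.8 CPM, 32 reads). Variation between libraries exceeded counting error (adjusted p = 2.24e-06, chi-square test), but without library 19 it did not (adjusted p = 0.162). Early-response genes were also lowest in library 19, at 996 CPM, but reached 3910 CPM in library 23, where Tnfrsf9 was second lowest. The part of these genes in the Tnfrsf9 values was not tested.

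Cd27, the receptor for CD70 and a marker of less differentiated lymphocytes, had 50, 41.5, 44.2, 55.5, 43.0 and 30.6 CPM in libraries 18 to 23. Library 23 was lowest (23.2 to 39.5 CPM) and library 21 highest (40.6 to 74.0 CPM). The variation passed the test (adjusted p = 0.00432, chi-square test) and missed it without library 18 (0.0564) or without library 23 (0.0573). Cd27 lies wholly within the span of Vamp1 on the opposite strand, which held 1684 exon reads beside 1436 for Cd27. The sources used here do not say whether strand was used in counting, so reads of the pair cannot be told apart with certainty.

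Tnfrsf25 encodes DR3, a receptor with a death domain that costimulates T cells on binding TL1A. It measured 29.9, 36.0, 26.7, 26.5, 27.0 and 21.1 CPM in libraries 18 to 23. Library 19 was highest (32.4 to 39.8 CPM) and library 23 lowest (15.1 to 28.7 CPM). The adjusted p was 0.00148 by the chi-square test, and 0.337 without library 19.

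The 2 receptors for TNF itself were both expressed, TNFR2 above TNFR1. Tnfrsf1b, the gene of TNFR2, had 78.3, 98.5, 79.3, 70.0, 95.8 and 68.0 CPM in libraries 18 to 23. Libraries 19 (92.6 to 105 CPM) and 22 (87.7 to 104 CPM) stood above libraries 18, 20 and 23, whose intervals ended at 87.1 CPM or below. The chi-square test gave an adjusted p of 2.09e-07, and the highest value was 1.45 times the lowest (1.21 to 1.75).

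Tnfrsf1a, the gene of the death-domain receptor TNFR1, was the most even of the 8 tested genes, with 33.7, 38.1, 44.7, 36.2, 40.8 and 41.6 CPM in libraries 18 to 23. Its spread did not pass the test (adjusted p = 0.0542, chi-square test). The test was passed without library 19 (0.0449), 21 (0.034), 22 (0.0398) or 23 (0.0396), while the adjusted p was 0.474 without library 18, the lowest, and 0.272 without library 20, the highest. Per kb, Tnfrsf1b exceeded Tnfrsf1a 1.58-fold in library 18, 1.75-fold in library 19, 1.20-fold in library 20, 1.31-fold in library 21, 1.59-fold in library 22 and 1.11-fold in library 23. The interval of this ratio included 1 in libraries 21 (0.830 to 2.11) and 23 (0.831 to 1.49).

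Fas, the death receptor that ends T cell responses when bound by Fas ligand, had 22.3, 17.0, 16.2, 13.3, 14.4 and 27.9 CPM in libraries 18 to 23. Library 23 was highest (20.9 to 36.5 CPM, 53 reads), followed by library 18 (19.2 to 25.7 CPM). The other 4 libraries lay between 13.3 and 17.0 CPM, and the variation exceeded counting error (adjusted p = 3.90e-04, chi-square test). The lowest level, in library 21, rests on 11 reads (6.63 to 23.8 CPM), and its interval overlaps that of library 23. Cell cycle genes were highest in library 23, at 927 CPM, and next highest in library 21, at 688 CPM, where Fas was lowest. Their part in the Fas values was not tested.

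Tnfrsf26, a mouse gene for the receptor TNFRH3 whose function is little known, was at 15.7, 15.7, 18.5, 6.03, 11.6 and 15.3 CPM in libraries 18 to 23. The low value in library 21 rests on 5 reads (1.96 to 14.1 CPM). The ratio of highest to lowest was 3.07 (1.27 to 9.67), or 1.59 without library 21. The chi-square test gave an adjusted p of 0.0292, and the call was lost without library 20 (0.0821), 21 (0.096) or 22 (0.14).

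Ltbr encodes the lymphotoxin beta receptor, which stromal and myeloid cells carry and lymphocytes lack. It had 0, 3, 1, 0, 3 and 0 exon reads in libraries 18 to 23, 7 in all. The highest level was 0.554 CPM in library 22 (0.114 to 1.62 CPM), and the 3 reads there equal the number set as the limit for a count of 0. Summed over 8 myeloid markers the level was 7.53 to 13.3 CPM, with S100a8 at 0 in all libraries.

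**Figure D2:**
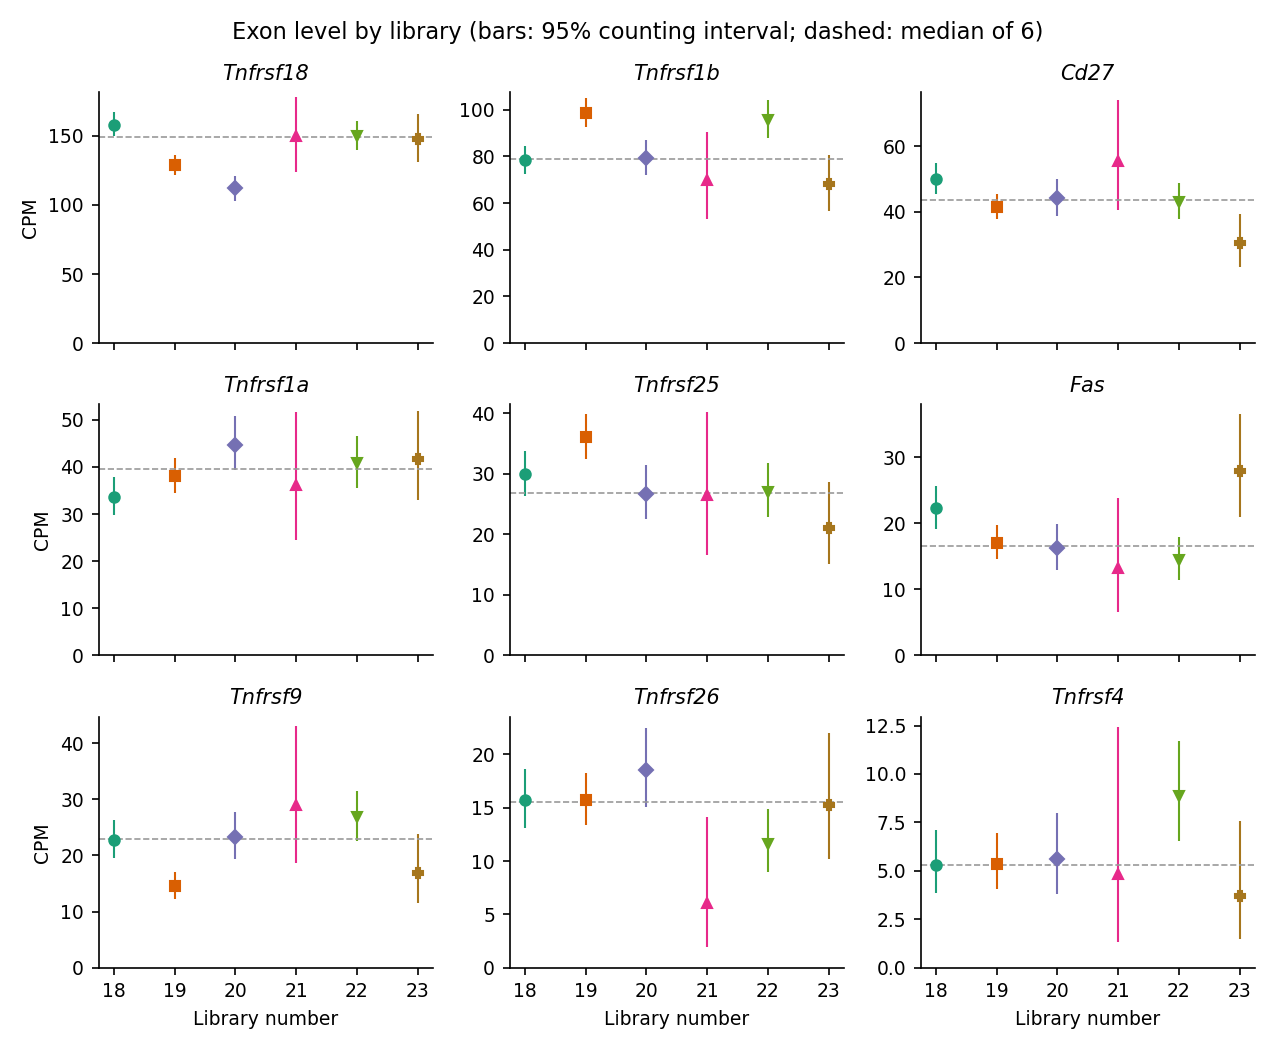
Exon level (CPM) by library number for the 9 receptor genes with at least 50 exon reads, each panel on its own axis from 0. Points are libraries 18 to 23, bars are exact 95% Poisson intervals and dashed lines are medians. Tnfrsf9 is lowest in library 19, Tnfrsf18 in library 20, Tnfrsf26 in library 21, and Fas is highest in library 23.

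In all, 8 of the 10 genes had enough reads for the test, and 7 of these passed it, against a background of 71.6% of the 9042 genes tested. The median ratio of highest to lowest level was 1.76 over the 8 tested receptors and 1.57 over all tested genes with reads in every library. A span of at most 2-fold was kept by 6 of the 8 receptors and by 73.4% of all tested genes. With so few genes, nothing particular to the receptors is read from these counts. Unique and total exon reads, as the authors' table names them, were equal for each of the 10 genes in every library with a read.

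The library with the lowest or highest value differed from gene to gene, and many of these extremes have intervals that overlap those of other libraries. Library 23 was lowest for Cd27, Tnfrsf25, Tnfrsf1b and Tnfrsf4 and highest for Fas. Library 20 was lowest for Tnfrsf18 and highest for Tnfrsf1a and Tnfrsf26. Library 19 was lowest for Tnfrsf9 and highest for Tnfrsf1b and Tnfrsf25. Fas and Tnfrsf26 were lowest and Tnfrsf9 and Cd27 highest in library 21. Tnfrsf1a was lowest and Tnfrsf18 highest in library 18, and Tnfrsf4 and Ltbr were highest in library 22. The fewest exon reads were in libraries 21 and 23, which hold many of these extremes.

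Ligand genes of the costimulatory receptors GITR, CD27, DR3, 4-1BB and OX40 were scarce in the same libraries, while Ltb, Tnfsf10 and Fasl were the most abundant ligand genes by median CPM. Per kb of exon the order was Ltb (median 223 CPM per kb), Cd40lg (59.8), Fasl (46.4) and Tnfsf10 (24.1). Tnfsf18, the ligand gene of GITR, had 1 read in all, in library 20, beside 4510 reads of its receptor gene. Cd70, the ligand gene of CD27, had 0 reads in all 6 libraries. Tnfsf15, the TL1A gene and partner of DR3, had 5 reads, Tnfsf9, the partner of 4-1BB, had 11, and Tnfsf4, the partner of OX40, had 16. None of these 5 ligand genes was measured above 1.27 CPM in a library. In library 21 none of them had a read, and the limit there for a gene without a read was 3.62 CPM.

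Ltb, a subunit of the ligand for the nearly absent Ltbr, was the most abundant of the 18 listed ligand genes, with 313, 396, 321, 256, 407 and 354 CPM in libraries 18 to 23. Tnfsf14, the gene of LIGHT, which also binds that receptor, had a median of 31.6 CPM (24.1 to 46.3 CPM). The death ligand genes Tnfsf10, which encodes TRAIL, and Fasl had medians of 127 and 90.0 CPM. Fasl was lowest in library 23, at 50.1 CPM, the library in which Fas was highest. Tnf was lowest in library 22, at 17.2 CPM, and highest in library 20, at 30 CPM, and Lta ranged from 4.80 to 8.44 CPM. Of the 8 ligand genes with enough reads, 6 varied beyond counting error, beside 71.6% of all tested genes, and the exceptions were Lta (adjusted p = 0.623) and Tnfsf11 (adjusted p = 0.2) by the chi-square test. The median ratio of highest to lowest over these 8 was 1.76.

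**Figure D3:**
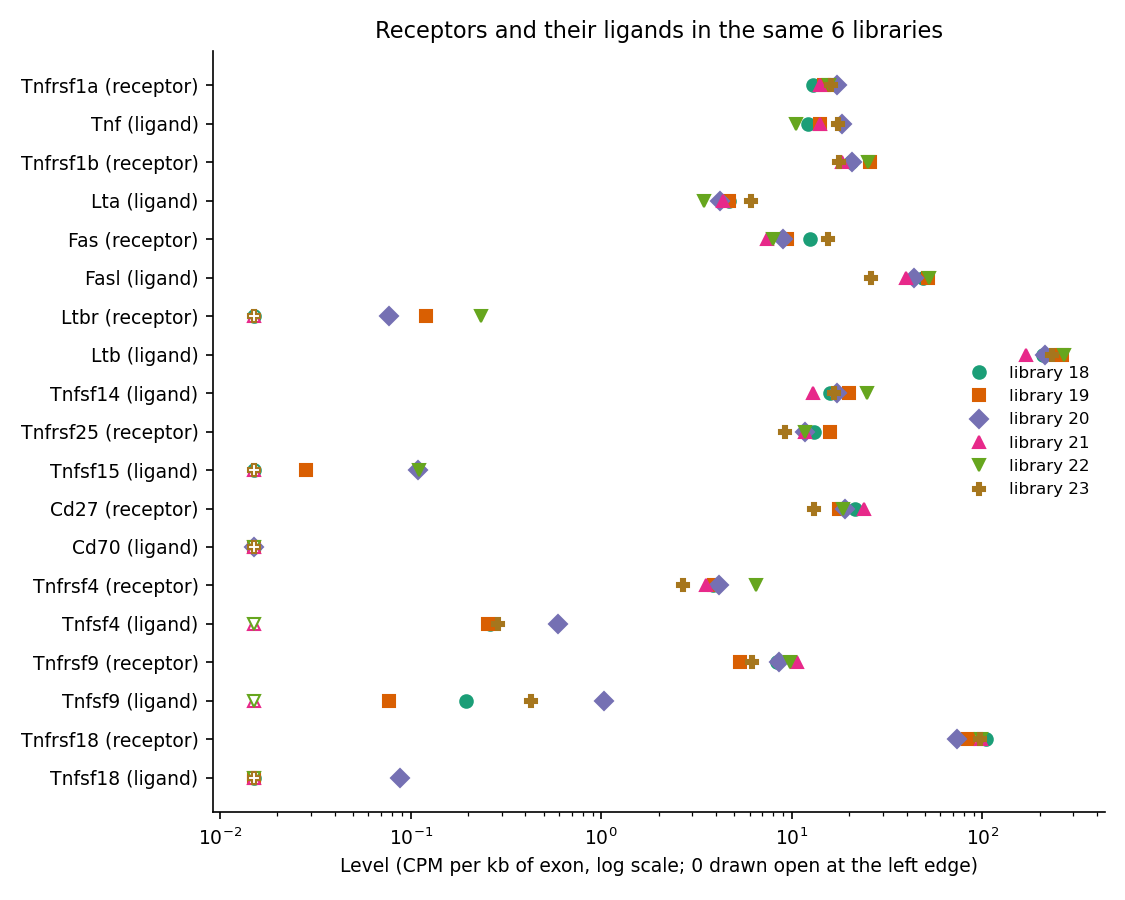
Level (CPM per kb of exon, log axis) of 9 receptor genes and of 10 ligand genes, each ligand below a receptor that it binds, in libraries 18 to 23. Tnf and the Lta product bind both TNF receptors, and Ltb and Tnfsf14 products bind the Ltbr product. Open symbols at the left edge are libraries without a read. The ligands of GITR, CD27, DR3, 4-1BB and OX40 lie far to the left of their receptors, and Ltb and Fasl lie to the right of theirs.

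The signalling genes downstream of these receptors were all expressed. All 22 listed adaptors and effectors had enough reads for the test, with medians over 1 CPM, and 16 varied beyond counting error, beside the 71.6% of all tested genes. Tnfaip3, which encodes the NF-kappaB inhibitor A20, was at 430 CPM in library 19 and reached 1651 CPM in library 20. Cyld, a deubiquitinase gene that restrains the same pathway, stayed between 454 and 484 CPM (adjusted p = 0.172, chi-square test). Birc3, the gene of the ubiquitin ligase cIAP2, had a median of 170 CPM and a span of 1.47-fold.

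Fadd, the adaptor gene through which Fas recruits caspase-8, was the one adaptor gene that ranged over 4-fold. It was 59.1 CPM in library 21 (43.7 to 78.2 CPM, 49 reads) and 8.44 to 18.4 CPM in the other libraries, a ratio of 7.01 that fell to 2.18 without library 21. Library 21 held the fewest reads and the lowest level of Fas, 13.3 CPM on 11 reads. The interval of that Fas level (6.63 to 23.8 CPM) overlaps that of every other library. The list as a whole had a median span of 1.42-fold.

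Most of the other 18 receptor genes of the superfamily were low, and the median reached 1 CPM for 7 of them. Tnfrsf13b, the gene of the BAFF and APRIL receptor TACI, had a median of 25.8 CPM (20.6 to 29.0 CPM). Its spread did not pass the test (adjusted p = 0.0702, chi-square test). The 8 listed markers of B cells, which carry TACI, summed to 22.97 CPM in library 19 and to at most 60.18 CPM (library 20). Tnfrsf13b was lowest in library 19 and highest in library 21, where this sum was 56.72 CPM. Single markers peaked in different libraries, among them Ms4a1 in library 20 (20.4 CPM) and Cd79a in library 23 (12.7 CPM). Cd79b peaked in library 22 (18.3 CPM) and Pax5 in library 21 (22.9 CPM). The part of B cells in the Tnfrsf13b values was not tested. Relt had a median of 19.6 CPM and Tnfrsf22, a decoy receptor gene for TRAIL in the mouse, 12.9 CPM. Tnfrsf22 lies upstream of Tnfrsf26 on chromosome 7, and 62 of its 424 exon reads were not unique. Of the 4 receptors of this list with enough reads, Relt and Tnfrsf10b, the mouse TRAIL receptor gene, varied beyond counting error. The share over all tested genes was 71.6%. Tnfrsf14, the gene of HVEM, ranged from 1.21 to 7.20 CPM on 186 reads, too few for the test. Eda2r had no read in any library.

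Regulatory T cells also carry GITR and OX40 in large amounts, so their markers are given here. Foxp3, their defining transcription factor gene, lay between 6.63 CPM (library 18) and 12.1 CPM (library 21), and Ctla4 from 10.6 CPM to 22.5 CPM. The 5 listed markers, all read in each library, summed to 474 to 595 CPM, mostly Il2ra and Ikzf2. In library 18, where Tnfrsf18 was highest, Foxp3 (6.63 CPM) and Il2ra (165 CPM) were at their lowest, Ctla4 (12.7 CPM) and Ikzf4 (4.46 CPM) were second lowest, and Ikzf2 (285 CPM) was second highest. The Foxp3 interval there (4.99 to 8.62 CPM) includes the values of libraries 19 and 20. In library 20, where Tnfrsf18 was lowest, Ikzf4 (4.36 CPM) was lowest. Foxp3 (7.09 CPM), Il2ra (213 CPM), Ctla4 (19.3 CPM) and Ikzf2 (266 CPM) were not at an extreme there. In library 22, where Tnfrsf4 was highest, Ctla4 (22.5 CPM), Ikzf2 (312 CPM) and the sum (595 CPM) were highest. Foxp3 (10.7 CPM), Il2ra (242 CPM) and Ikzf4 (7.20 CPM) were not at an extreme in library 22. The part of regulatory T cells in the receptor levels was not tested.

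Reads on introns, which can come from unspliced or partly spliced RNA, made up very different shares of the receptor genes' reads. The source of the intron reads was not tested. Over all genes, introns held 45.5% (library 22) to 50.6% (library 20) of the reads. Fas had the highest share, 71.5%, 74.5%, 78.5%, 89.0%, 75.6% and 72.0% in libraries 18 to 23. Tnfrsf18 had the lowest, between 6.06% in library 21 and 8.74% in library 19. The other tested receptors lay between, with medians of 57.6% for Tnfrsf26, 50.4% for Tnfrsf1b, 47.3% for Tnfrsf1a, 43.9% for Cd27, 41.6% for Tnfrsf9 and 32.0% for Tnfrsf25. The median over the 8 tested receptors was 45.9%, and over all 7227 genes tested for this share 46.1%.

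These shares reflect intron length as well as density. Fas has 35311 bases of intron beside 1801 of exon, and Tnfrsf18 has 1208 beside 1524. Per base, intron coverage was 15.4% of exon coverage for Fas (median over libraries), 9.94% for Tnfrsf18, 13.1% for Tnfrsf1b and 6.74% for Tnfrsf9. It was higher for Tnfrsf4 (93.3%), Cd27 (88.6%) and Tnfrsf25 (56.1%). Genes on the opposite strand overlap Cd27 (Vamp1) and Tnfrsf9, where Camta1, with 1374 exon reads of its own, covers 28781 bases. Tnfrsf18 (Gm16008, 79 exon reads) and Tnfrsf26 (E230032D23Rik, 87 exon reads) are overlapped by antisense genes.

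The intron share of a gene differed between libraries beyond counting error for 5 of the 8 tested receptors, against 74.7% of all tested genes. Tnfrsf1a stood at 29.5% in library 23 (Wilson interval 21.8% to 38.5%) and at 36.2% to 49.8% elsewhere. The chi-square test of intron against exon reads gave an adjusted p of 0.00541, and 0.514 without library 23. For Fas the share was highest in library 21, at 89.0% (81.4% to 93.7%), against 78.5% (74.3% to 82.2%) in library 20. The adjusted p of 0.00435 became 0.149 without library 21. The Fas share there rests on 11 exon and 89 intron reads. Fas intron reads alone stood at 107 CPM in library 21 and at 44.7 to 71.7 CPM in the other libraries. Cd27 was highest in library 20, at 51.8% (47.4% to 56.1%), with an adjusted p of 0.00451 that became 0.209 without library 20 and 0.0532 without library 18. Tnfrsf26 was lowest in library 20, at 44.6% (37.6% to 51.8%), and its adjusted p of 0.0166 became 0.433 without that library.

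Tnfrsf1b had 53.2%, 45.7%, 51.5%, 54.7%, 45.7% and 49.2% of reads on introns in libraries 18 to 23 (adjusted p = 2.11e-04, chi-square test). The shares were lowest in libraries 19 and 22, the libraries with its highest exon levels. More exon reads lower the share by arithmetic, so this match is not a separate observation. Its intron reads alone stood at 89.0, 83.0, 84.2, 84.5, 80.5 and 65.9 CPM in libraries 18 to 23. Tnfrsf9 (adjusted p = 0.459), Tnfrsf18 (0.247) and Tnfrsf25 (0.281) did not pass the test.

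**Figure D4:**
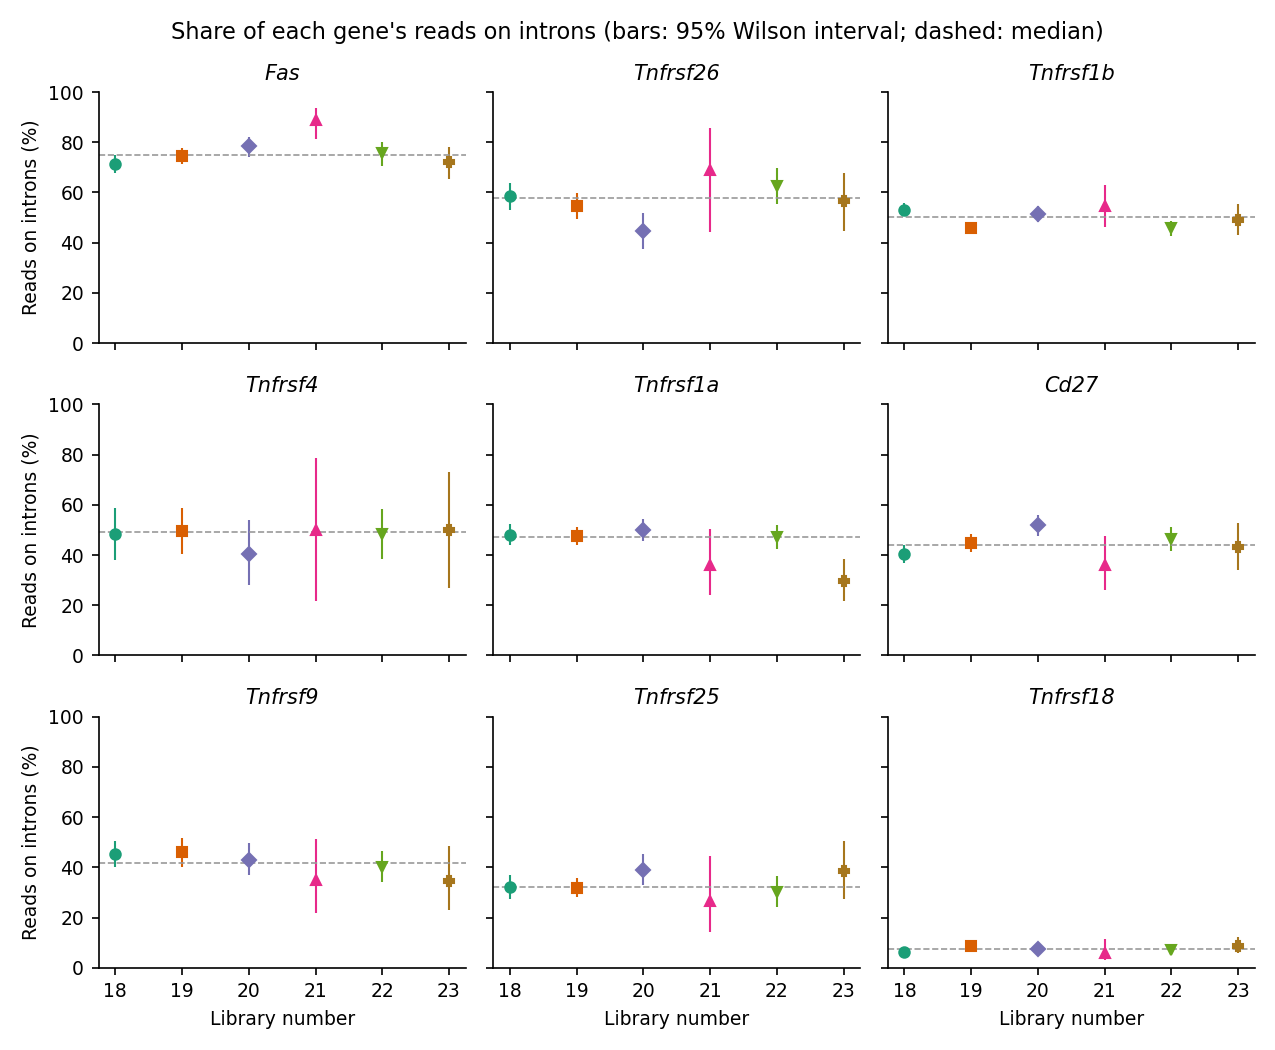
Share of each receptor gene's reads that lie on introns (%, 0 to 100 in every panel) by library number for 9 genes, ordered by median. Points are libraries 18 to 23, bars are 95% Wilson intervals and dashed lines are medians. Fas is near 75.1% and Tnfrsf18 near 7.31%. The Tnfrsf1a share is lowest in library 23, where its interval overlaps that of library 21, and the Fas share is highest in library 21, where its interval overlaps that of library 20.

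Of the tested receptors, Tnfrsf26, Tnfrsf9 and Fas had the widest spans, 1.16, 1.09 and 0.97 on the log2 scale with a prior count of 2. The 7807 candidates were genes with at least 200 exon reads and a mean of at least 10 CPM. Pseudogenes, genes with provisional names such as Gm or Rik numbers, and the 10 receptor genes were left out. Candidates were ranked by root mean square difference in median-centred log2 level from each of Tnfrsf26, Tnfrsf9 and Fas over the 6 libraries. Closest to Fas were Ap5z1 (0.07), Ppa2 (0.09) and Nop16 (0.12), against a median difference of 0.43 over all candidates. Closest to Tnfrsf9 were Pgap1 (0.10), Lclat1 (0.11) and Pbdc1 (0.12), against 0.42. Closest to Tnfrsf26 were Tjap1 (0.09), B4galt7 (0.12) and Eme2 (0.13), against 0.48. The closest of 7807 candidates lie below the median by selection, so the medians give only the scale. With 6 points that share library depth such resemblances are loose, and between 0 and 5 of these 9 genes were kept when a library was left out.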

How the data were processed

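RNA of sorted spleen iNKT cells was isolated by NucleoSpin RNA XS Micro columns, and QIAseq UPXome reagents were used for the libraries, per the labels' protocols. The submitters' processing notes name GRCm38 and mm10. The sources used here name no aligner or counting tool and no use of strand or molecular identifiers.

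The table that the authors deposited gives, per gene and library, exon read counts that are not normalized, the fraction of a gene's reads on introns, the ratio of unique to total exon reads, RPKM and exon length. The authors' RPKM values imply totals of 1899726 to 21047451 reads per library. Another 13 columns of values were not used. Intron reads were recovered from the fraction and the exon count, and 99.99% came out within 0.02 of a whole number.

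Effective library sizes used TMM factors (edgeR 4.0.16, R 4.3.3) from 9510 genes kept by filterByExpr with the libraries as 1 group. Counts were tested against them by chi-square (5 degrees of freedom, at least 200 exon reads), and intron against exon reads by chi-square on 2 rows (at least 200 reads and every expected number at least 5). Both used Benjamini-Hochberg adjustment over all tested genes at 0.05, were tested on simulated data, and treat no library as a replicate. They assess counting error, which in reads copied by PCR is smaller than the error of molecules. Level ratios have exact conditional 95% intervals, and intron shares Wilson intervals.

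Since 0 of 6 library names match a label, the planned edgeR comparison of genotypes was not run. The members, lists and tests were chosen with earlier results of these data known. Named genes were the 10 receptors, the ligands of the receptors, and, of the lists of other receptors, ligands and adaptors, the 3 most abundant genes and any with at least 200 exon reads ranging over 4-fold. The other lists are given as sums, and a few genes were chosen after their values were seen. Alternatives were DESeq2 1.42.0 size factors, no composition factor, unique reads, other minimum counts, RPKM and leaving out each library. Gene positions are those of the deposited table, and promoter sequences are from RefSeq (GRCm38.p6). Overlapping genes are from GENCODE M21.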

Additional observations from a re-analysis of the deposited data

Results flagged for a closer look

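Among 18 sets of 6 library values examined (exon level and intron share of 9 receptor genes), 1 held a value that stood apart by a gap above Dixon's 95% critical share of the whole range. The intron share of Tnfrsf4 was 40.4% in library 20 and at least 48.2% in the others, a gap of 0.816 of the range. The share in library 20 rests on 52 gene reads, with a Wilson interval of 28.2% to 53.9% that includes the other values. Chance marks about 1 such set in 20.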

How the results depend on the processing

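The number of receptor genes that varied beyond counting error was 7 under DESeq2 size factors, no composition factor, unique reads and both lower minimum counts, and 6 to 7 when a library was left out. The summed level spanned 1.13-fold, or 1.20-fold without a composition factor, and 1.12-fold to 1.13-fold with a library left out. Per kb it spanned 1.19-fold, against 1.38-fold by the deposited RPKM, which uses other library totals. By RPKM the span of Tnfrsf18 was 1.62-fold. The number with a varying intron share was 5, and 3 to 5 with a library left out. For single genes 128 of 144 tests kept their side of the threshold, 12 lost the call and 4 gained it, and each change came from leaving out a library. The 144 include settings that could hardly change a call. Unique reads and lower minimum counts leave the counts of these genes as they are and shift only library sizes or the adjustment. No paired analysis was possible because no library name matches a label. Depth limits library 21 most, where Tnfrsf4 and Tnfrsf26 rest on 4 and 5 reads.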
